A study of Homo sapiens with 4 samples.

Results

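The 39 genes described here encode lysosomal enzymes, lysosomal membrane and cholesterol-carrying proteins, the vacuolar proton pump (V-ATPase), and the transcription factors TFEB, TFE3 and MITF. They were chosen by name for their function, with earlier results of these data known, and all 39 were found among the 20263 genes of the deposited count table. They form 6 classes. There are 15 hydrolases and their activators, 6 membrane and cholesterol-carrying proteins, 2 accessory proteins of the V-ATPase, 5 subunits of its V0 part, 8 subunits of its V1 part, and 3 transcription factors of the MiT/TFE family.

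Polyadenylated RNA was sequenced from cultures of MDA-MB-231, a human breast cancer cell line without estrogen and progesterone receptors. The cells were given YW-LF, which the series title calls a derivative of ribociclib, for 24 h (n = 2), or were the controls given dimethyl sulfoxide (DMSO, n = 2), the solvent. All cells grew in DMEM with 10% fetal bovine serum, and no source used here gives a dose. The study asked how gene expression differs between treated and control cells.

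Lysosomes digest proteins, glycans and lipids with enzymes that work at acid pH. The V-ATPase supplies that acidity: its V1 part, in the cytosol, splits ATP, and its V0 part, in the membrane, moves protons into the lumen. Many genes for lysosomal proteins carry a short palindromic sequence near their start, called the CLEAR element, which TFEB, TFE3 and MITF can bind. When the kinase complex mTORC1 on the lysosomal surface is active, TFEB and TFE3 are held in the cytosol, and when it is inactive they enter the nucleus. Their activity is therefore set largely by location, which RNA levels do not show.

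The 4 promoters below were taken by length of match to the CLEAR element. At equal length, the lower unadjusted p of the edgeR expression test given below decided. They are shown as examples of the sites known from lysosomal genes. RefSeq promoter windows (GRCh38.p14, 250 bases before to 50 after each annotated start) matched 28 of the 39 genes. The windows were searched for CACGTG, the E-box core, for the 8-base form TCACGTGA, and for a 10-base form that adds G before and C after those 8 bases. Each longer form contains the shorter. All 3 read the same on both strands. Each sequence runs 5′ to 3′ from 200 bases before the start to 10 after it, on the strand of the gene, with the longest matching motif in capitals.
GAA, chr17:80101381-80101590, plus strand: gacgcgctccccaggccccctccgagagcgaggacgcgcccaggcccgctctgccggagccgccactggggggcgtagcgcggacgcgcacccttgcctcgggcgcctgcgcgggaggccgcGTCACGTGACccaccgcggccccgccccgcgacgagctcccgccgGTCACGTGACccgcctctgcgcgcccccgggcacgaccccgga
ATP6V1G1, chr9:114587569-114587778, plus strand: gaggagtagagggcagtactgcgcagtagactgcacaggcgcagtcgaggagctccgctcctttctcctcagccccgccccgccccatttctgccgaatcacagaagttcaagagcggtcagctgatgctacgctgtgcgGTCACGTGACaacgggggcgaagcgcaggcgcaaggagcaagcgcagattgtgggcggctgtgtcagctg
MCOLN1, chr19:7522424-7522633, plus strand: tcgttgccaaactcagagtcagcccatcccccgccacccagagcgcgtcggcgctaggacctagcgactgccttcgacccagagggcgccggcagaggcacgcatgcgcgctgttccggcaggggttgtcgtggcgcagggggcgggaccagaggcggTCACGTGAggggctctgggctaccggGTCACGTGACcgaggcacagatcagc
LAMP1, chr13:113297039-113297248, plus strand: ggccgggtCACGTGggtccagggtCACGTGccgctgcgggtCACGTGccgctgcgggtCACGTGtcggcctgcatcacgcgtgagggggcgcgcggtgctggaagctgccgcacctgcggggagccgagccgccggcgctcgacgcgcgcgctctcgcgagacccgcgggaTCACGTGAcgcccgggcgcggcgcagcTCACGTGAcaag

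GAA held 2 copies of the 10-base form, and LAMP1 held 6 copies of the core, 2 of them in the 8-base form. From each of the 6 other genes with a core, 1 site is shown with its flanks for comparison.
ATP6V0D1, chr16:67481201-67481226, minus strand: cccttatggTCACGTGAggcgcttgc
CTSA, chr20:45891300-45891325, plus strand: cgccggagtTCACGTGActcgtacac
CLN3, chr16:28492060-28492085, minus strand: cgggtgctgTCACGTGAtccgacaaa
ATP6V0B, chr1:43974893-43974918, plus strand: ggcgtggggtCACGTGgtaccggcgc
NEU1, chr6:31862932-31862957, minus strand: gctgcgtgatCACGTGggaggagatg
CTSD, chr11:1763959-1763984, minus strand: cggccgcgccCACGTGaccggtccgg

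The core stood in 10 of the 28 matched lysosomal genes (35.7%), against 12.2% of the 10998 genes tested below that have a window, and in 7.26% of all 35116 windows. The 8-base form stood in 7 of the 28 (25%), against 2.21% of those genes and 0.980% of all windows. The 10-base form stood in 3 of the 28 (10.7%), against 0.873% and 0.353%. A match describes the letters only, and no binding was measured. The plot of motif positions shows that most sites lie close to the start.

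**Figure D1:**
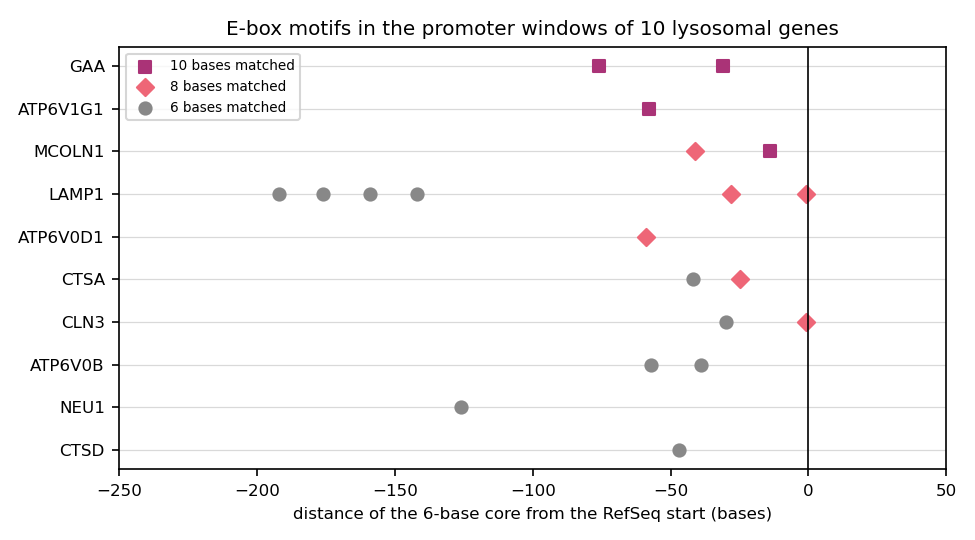
Position of each E-box core in the RefSeq promoter windows of the 10 lysosomal genes that hold one, in bases from the annotated start (0); symbols give the length of the palindrome matched (6, 8 or 10 bases). Outside LAMP1 and NEU1, all cores begin within 76 bases before the start.

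The libraries held 40218240 and 36886858 counts for YW-LF replicates 1 and 2, and 34774542 and 37754168 counts for DMSO replicates 1 and 2. They differed in composition. Ribosomal protein genes took 3.87% and 9.44% of counts in YW-LF replicates 1 and 2, against 3.25% and 2.46% in the DMSO replicates. The 13 mitochondrially encoded genes took 3.14% and 6.58%, against 8.68% and 21.7%. Across genes, the log2 levels of the YW-LF libraries correlated at r = 0.907 and those of the DMSO libraries at 0.976 (genes are not independent replicates). The mesenchymal markers VIM, CD44 and AXL summed to 3821 and 4045 CPM (a gene's counts as a rate within its library) in YW-LF, against 5715 and 5769 CPM in DMSO. VIM and AXL were lower in both treated libraries. CD44 was at 500 and 335 CPM in YW-LF, against 484 and 504 CPM in DMSO, so its first treated value lay between the controls. The 6 luminal breast markers summed to 100.2 and 29.5 CPM in YW-LF, against 96.7 and 84.0 CPM in DMSO, and CDH1 had 0 counts in 1 library of each group. ERBB2 made up most of that sum, at 86.5 and 25.3 CPM in YW-LF, against 77.5 and 56.9 CPM in DMSO. GATA3 was lower in both treated libraries, at 3.85 and 3.36 CPM, against 9.72 and 19.0 CPM in DMSO, and DESeq2 called it lower (adjusted p = 0.0098). Of leukocyte markers, PTPRC had 29 and 3 counts in YW-LF, against 22 and 13 counts in DMSO, CD14 had 20 and 0 counts, against 18 and 17 counts in DMSO, and CD3E had 0 in every library. In CPM, the 4 fibroblast and endothelial markers summed to 11.1 and 1.76 in YW-LF, against 11.8 and 9.35 in DMSO. The part of these differences in the results below was not tested. In such bulk samples, fewer cells of a kind and less RNA per cell cannot be told apart.

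Most of the lysosomal genes stood higher in cells given YW-LF, but none passed edgeR's test across the genome, and 5 passed that of DESeq2. All 39 passed the filter on low counts. Together they took 0.782% and 0.715% of counts in the YW-LF libraries, against 0.421% and 0.394% in the DMSO libraries. Both treated libraries lay clearly above both controls in that share, which is taken of each library's total count. That total includes the mitochondrial and ribosomal protein genes, whose shares differed between libraries as given above.

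CPM values from here on were scaled by the trimmed mean of M-values (TMM), and a fold change is that of YW-LF over DMSO. The fold change was above 1 for 35 of the 39 genes, against 52.5% of all genes tested, and the median log2 fold change was 0.76, against 0.06 over all 13816 genes tested. The fold change was at least 2 for 11 genes, and the share of all genes tested at that size was not computed. Both treated libraries lay above both controls for 26 genes (66.7% of the 39), where 28% of all genes tested did so. Both lay below for 1 gene, CTSZ (2.56%), where 27.8% of all genes tested did so, and the groups overlapped for the other 12 genes. With 2 libraries per group, an exact permutation test of a single gene cannot go below p = 0.333 (two-sided).

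After Benjamini-Hochberg adjustment, the quasi-likelihood test of edgeR called 0 of the 39 genes higher and 0 lower, and over all genes tested the share called was 0% in each direction. At an unadjusted p under 0.05 there were 11 lysosomal genes higher (28.2%, against 11.5% of all genes tested) and 0 lower (against 9.01%). DESeq2 called 5 higher and 0 lower: PSAP, SGSH, ATP6V0B, ATP6V1E1 and ATP6V1B2. That is 12.8% of the 39, against 5.77% higher and 4.26% lower among all genes with a DESeq2 adjusted p. limma-voom called 0, with 10 of the 39 higher at an unadjusted p under 0.05 (against 9.68%).

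The number called differed between the fits that left out 1 library. In edgeR, the count called higher was 22 without YW-LF replicate 1 (56.4%, against 21% of all genes) and 7 without YW-LF replicate 2 (17.9%, against 10.1%), with 0 lower (against 20.7%) and 1 lower (against 10.2%) in those fits. In such a fit 1 pair of libraries alone sets the spread, here the same DMSO pair in both. NEU1, PSAP, NPC1, ATP6V0B, ATP6V1B2 and ATP6V1E1, chosen here after their values were seen, had log2 fold changes of at least 0.93 in both of those fits. The share of all genes tested that did so was not computed. At an unadjusted p under 0.05, 24 and 16 of the 39 were higher there (against 25.3% without replicate 1 and 18.8% without replicate 2 over all genes) and 0 and 1 lower (against 26.2% and 18.7%). Without DMSO replicate 1, 0 of the 39 were called (against 0.318% higher and 0.194% lower), and 0 were higher at an unadjusted p under 0.05 (against 4.5%) and 0 lower (against 3.39%). Without DMSO replicate 2, 0 were called (against 0.332% higher and 0.111% lower), 1 was higher at an unadjusted p under 0.05 (against 4.32%) and 0 were lower (against 2.55%).

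Other scalings and filters left the edgeR count called at 0. At an unadjusted p under 0.05, 11 of the 39 were higher with RLE scaling (against 11.7%), 11 with upper quartile scaling (against 10.8%), 14 with library size alone (against 10.8%), 11 without mitochondrial genes (against 11.4%), 12 without a count filter (against 10.7%) and 11 with a stricter filter (against 11.7%). Without a count filter 0.927% of all genes were called higher and 0.718% lower. With the replicate number as a block, 1.35% of all genes were called higher and 1.05% lower, none of them among the 39, of which 10 were higher at an unadjusted p under 0.05 (against 9.69%) and 0 lower (against 9.76%).

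**Figure D2:**
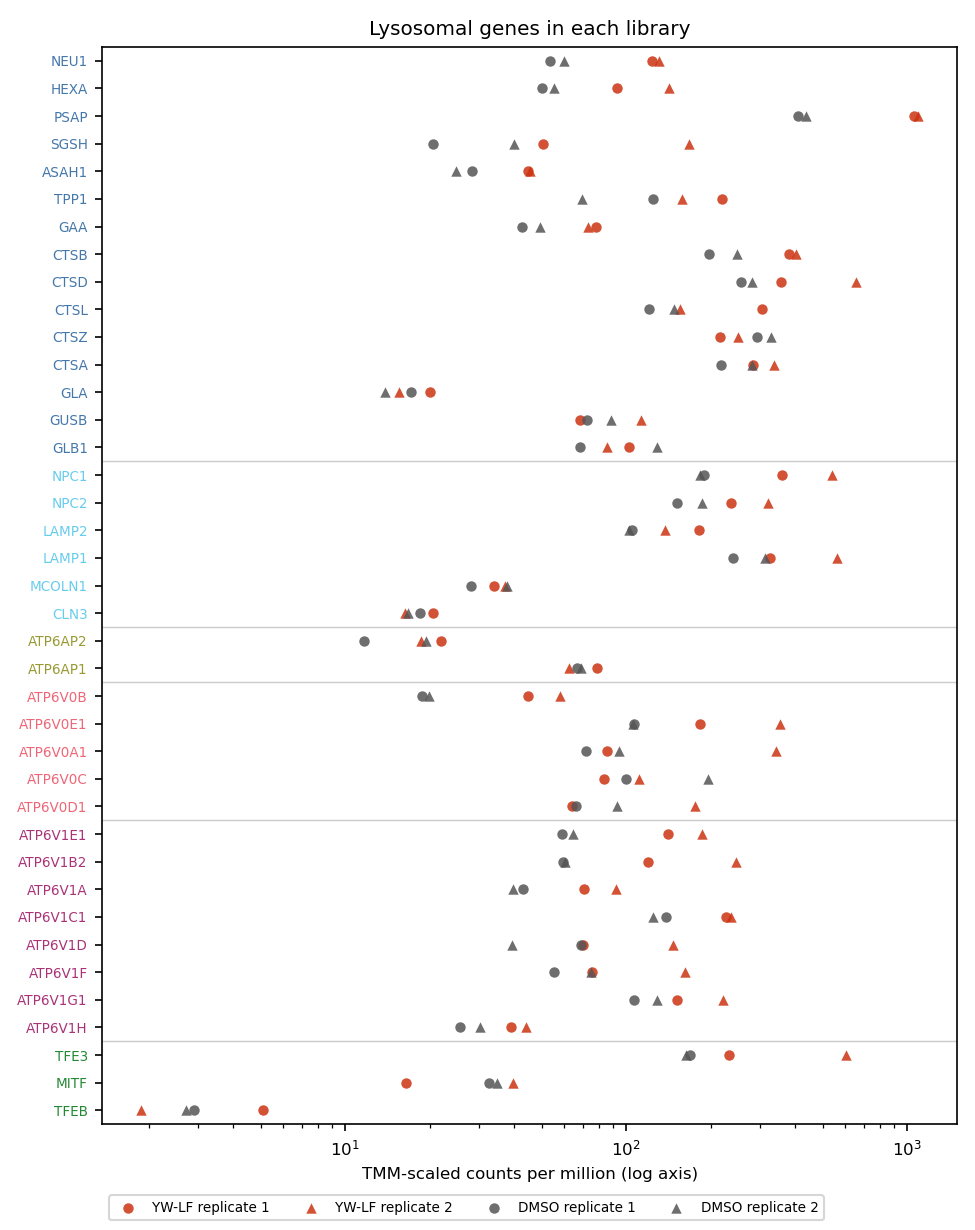
TMM-scaled CPM (log axis) of the 39 lysosomal genes in each library, with YW-LF in red, DMSO in grey, replicate 1 as circles and replicate 2 as triangles, and horizontal lines between classes. In 26 rows both red symbols lie to the right of both grey ones, and in 1 row, CTSZ, to the left.

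Among the hydrolases and their activators, 11 of 15 had both treated libraries above both controls (28% of all genes tested did), 1 had both below (27.8% of all genes did) and 3 overlapped. The class median log2 fold change was 0.78, and 0 members were called by edgeR in either direction. The summed level of the class was 3400 and 3823 CPM in YW-LF, against 1971 and 2250 CPM in DMSO.

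PSAP, the precursor of the saposins that present lipids to lysosomal enzymes (ENSG00000197746, chromosome 10, 71816298 to 71851375 in GRCh38), had 1061 and 1094 CPM in YW-LF, against 410.0 and 435 CPM in DMSO. The treated libraries nearly coincided and stood well apart from the controls. The log2 fold change was 1.35 (SE 0.46), with an edgeR adjusted p of 0.188 and a DESeq2 adjusted p of 0.029. Per kilobase of transcript, PSAP was the most abundant of the 39 in YW-LF, at 375 CPM per kb, and the third in DMSO, at 147 CPM per kb.

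NEU1, the lysosomal sialidase (ENSG00000204386, chromosome 6, 31857659 to 31862906), had 123.9 and 131 CPM in YW-LF, against 53.5 and 60.0 CPM in DMSO. The groups did not overlap and the replicates of each lay close together. The difference on the log2 scale was 1.17 (SE 0.35, edgeR adjusted p = 0.156), and NEU1 carries a core but no longer motif in its window. NEU1 works in a complex with the protective carboxypeptidase CTSA and the beta-galactosidase GLB1, and the levels of these partners differed less between the groups. CTSA had 283 and 334 CPM in YW-LF, against 217 and 281 CPM in DMSO, so that the lower treated library and the higher control were almost equal. GLB1 had 102.7 and 85.4 CPM in YW-LF, against 68.5 and 129 CPM in DMSO. Both treated values of GLB1 lay between the controls.

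HEXA, the alpha subunit of beta-hexosaminidase, which trims gangliosides (ENSG00000213614, chromosome 15, 72340919 to 72376476), had 93.0 and 142 CPM in YW-LF, against 50.3 and 55.3 CPM in DMSO. Both treated libraries lay above both controls (log2 fold change 1.16, SE 0.38, edgeR adjusted p = 0.180). SGSH, the sulfamidase that degrades heparan sulfate (ENSG00000181523, chromosome 17, 80206716 to 80220923), had 50.7 and 167 CPM in YW-LF, against 20.5 and 39.8 CPM in DMSO. The log2 fold change of 1.85 for SGSH (SE 0.65) was the highest of the 39, with an edgeR adjusted p of 0.194 and a DESeq2 adjusted p of 0.031. It was 2.46 with the first treated library left out and 0.74 with the second left out, so the size rests on the second treated library.

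ASAH1, acid ceramidase, had 44.7 and 45.3 CPM in YW-LF, against 28.2 and 24.8 CPM in DMSO (log2 fold change 0.76, SE 0.34, edgeR adjusted p = 0.268). TPP1, a tripeptidyl peptidase, had 219 and 159 CPM in YW-LF, against 124 and 69.7 CPM in DMSO (0.96, SE 0.44, edgeR adjusted p = 0.274). Neither gene overlapped between the groups. GAA, the acid alpha-glucosidase that degrades glycogen and whose promoter holds the 10-base motif in 2 copies, had 78.3 and 73.4 CPM in YW-LF, against 42.7 and 49.1 CPM in DMSO, also without overlap (0.72, SE 0.34, edgeR adjusted p = 0.282).

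The cathepsins differed among themselves. CTSB, a cysteine protease, was at 379 and 402 CPM in YW-LF, against 197 and 248 CPM in DMSO. CTSD, the aspartic protease, was at 356 and 658 CPM in YW-LF, against 256 and 280.3 CPM in DMSO. CTSL, another cysteine protease, was at 304 and 155 CPM in YW-LF, against 120.1 and 147 CPM in DMSO, so that only the first treated library stood far above the controls. CTSZ, a cysteine carboxypeptidase, went the other way, at 216 and 249.9 CPM in YW-LF, against 293 and 328 CPM in DMSO. The difference of -0.42 on the log2 scale (SE 0.39) had an edgeR adjusted p of 0.578. Per kilobase of transcript, CTSZ was the most abundant of the 39 in DMSO, at 208 CPM per kb, and the eighth in YW-LF, at 156 CPM per kb. The log2 fold changes of the remaining enzymes were 0.19 for the alpha-galactosidase GLA and 0.17 for the beta-glucuronidase GUSB, and both genes overlapped between the groups. Annotated GUSB and CTSL pseudogenes number 11 and 6 entries in GENCODE, and reads could be shared with them.

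Of the 6 membrane and cholesterol-carrying proteins, 4 had both treated libraries above both controls (against 28% of all genes tested), 0 had both below (against 27.8%) and 2 overlapped. The median log2 fold change was 0.65 and edgeR called 0 in either direction. The class summed to 1154 and 1613 CPM in YW-LF, against 732 and 835 CPM in DMSO. NPC1, the membrane protein that exports cholesterol from lysosomes (ENSG00000141458, chromosome 18, 23506184 to 23586898), had 358 and 541 CPM in YW-LF, against 189.6 and 182 CPM in DMSO. The lower treated library stood well above both controls, which were almost equal (log2 fold change 1.27, SE 0.43, with adjusted p = 0.187 in edgeR and 0.059 in DESeq2).

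NPC2, the soluble protein that hands cholesterol to NPC1, had 237 and 319 CPM in YW-LF, against 151 and 186 CPM in DMSO (0.72, SE 0.40, edgeR adjusted p = 0.346). LAMP2 and LAMP1 are the main glycoproteins that line the lysosomal membrane. LAMP2 had 181 and 137 CPM in YW-LF, against 104.7 and 102.1 CPM in DMSO (0.62, SE 0.37, edgeR adjusted p = 0.369). LAMP1 had 324 and 562 CPM in YW-LF, against 240.1 and 311 CPM in DMSO (0.68, SE 0.47, edgeR adjusted p = 0.439). In LAMP1 the first treated library lay just above the higher control, and in LAMP2 both lay above with more room. The calcium channel MCOLN1, whose promoter holds the 10-base and the 8-base motif, had 33.8 and 37.1 CPM in YW-LF, against 28.1 and 37.5 CPM in DMSO. CLN3, a membrane protein mutated in Batten disease, had 20.5 and 16.3 CPM in YW-LF, against 18.5 and 16.7 CPM in DMSO. Both overlapped between the groups, with log2 fold changes of 0.11 for MCOLN1 and 0.06 for CLN3, and each changed sign in at least 1 fit without 1 library.

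Among the V-ATPase genes, the 8 V1 subunits stood higher together, while V0 subunits and accessory proteins varied. Of all 15 genes, 10 had both treated libraries above both controls (against 28% of all genes tested), 0 had both below (against 27.8%) and 5 overlapped. The median log2 fold change was 0.87, and the summed level was 1453 and 2451 CPM in YW-LF, against 998 and 1159 CPM in DMSO. edgeR called 0 of the 15 in either direction.

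All 8 V1 subunits had both treated libraries above both controls, where 28% of all genes tested did so. Their log2 fold changes ran from 0.57 to 1.60, with a median of 0.92. ATP6V1B2, a nucleotide-binding subunit (ENSG00000147416, chromosome 8, 20197367 to 20226819), had 119 and 246 CPM in YW-LF, against 59.6 and 60.6 CPM in DMSO. ATP6V1E1, a subunit of the outer stalk (ENSG00000131100, chromosome 22, 17592136 to 17628818), had 140.4 and 186 CPM in YW-LF, against 59.1 and 64.8 CPM in DMSO. For both, the controls were nearly equal and each treated library stood well above them. The log2 fold change was 1.60 for ATP6V1B2 (SE 0.46, edgeR adjusted p = 0.149, DESeq2 adjusted p = 0.024) and 1.40 for ATP6V1E1 (SE 0.37, with adjusted p = 0.136 in edgeR and 0.031 in DESeq2).

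ATP6V1A, the catalytic subunit, had 70.7 and 91.6 CPM in YW-LF, against 43.0 and 39.5 CPM in DMSO (0.98, SE 0.35, edgeR adjusted p = 0.204). ATP6V1C1, which joins V1 to V0, had 226 and 235 CPM in YW-LF, against 139 and 125 CPM in DMSO (0.81, SE 0.37, edgeR adjusted p = 0.269). Neither pair of groups overlapped. In ATP6V1D and ATP6V1F, subunits of the rotating central stalk, the first treated library barely exceeded the controls. ATP6V1D had 70.3 and 147 CPM in YW-LF, against 69.2 and 39.3 CPM in DMSO, and ATP6V1F had 75.6 and 161 CPM in YW-LF, against 55.1 and 74.7 CPM in DMSO. ATP6V1G1, an outer-stalk subunit whose promoter holds the 10-base motif, had 152 and 221 CPM in YW-LF, against 106.7 and 129 CPM in DMSO. ATP6V1H, a regulatory subunit, had 38.9 and 44.1 CPM in YW-LF, against 25.7 and 30.2 CPM in DMSO. GENCODE lists 5 pseudogenes of ATP6V1G1 and 1 of ATP6V1E1.

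Of the 5 V0 subunits, 2 had both treated libraries above both controls (against 28% of all genes tested), 0 had both below (against 27.8%) and 3 overlapped. The class median log2 fold change was 1.34, above the V1 median of 0.92, but single values ran from -0.60 to 1.41. ATP6V0B, a subunit of the proton-carrying ring (ENSG00000117410, chromosome 1, 43974487 to 43978295), had 44.6 and 57.9 CPM in YW-LF, against 18.7 and 19.8 CPM in DMSO. The groups lay far apart relative to the spread within each. Its log2 fold change of 1.41 (SE 0.36) had the lowest edgeR adjusted p of the 39 genes, 0.133, and a DESeq2 adjusted p of 0.035. ATP6V0E1, a small membrane subunit, had 183 and 353 CPM in YW-LF, against 106.2 and 105.5 CPM in DMSO (1.34, SE 0.45, edgeR adjusted p = 0.186), and 4 pseudogenes of it are annotated.

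ATP6V0A1, the large membrane subunit that lines the proton path, had 85.2 and 340.0 CPM in YW-LF, against 72.1 and 94.2 CPM in DMSO. ATP6V0D1, which couples V0 to the central stalk, had 64.2 and 176 CPM in YW-LF, against 66.5 and 92.9 CPM in DMSO. On the TMM scale, YW-LF replicate 1 lay at or near the control level in both, and YW-LF replicate 2 far above it. The TMM factor of 1.25 lowers YW-LF replicate 1 relative to the other libraries, so this placing depends on the scaling. The log2 fold change was 1.35 for ATP6V0A1 (SE 0.66, edgeR adjusted p = 0.293) and 0.59 for ATP6V0D1 (SE 0.54, edgeR adjusted p = 0.565). Without YW-LF replicate 2 these were 0.02 and -0.32.

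ATP6V0C, the main subunit of the proton-carrying ring, went against the other V0 genes, at 83.4 and 110.95 CPM in YW-LF, against 99.6 and 195 CPM in DMSO. The difference on the log2 scale was -0.60 (SE 0.45, edgeR adjusted p = 0.482), and the controls differed more than the treated libraries did. The gene shares 862 of its 1498 exonic bases with another gene of the table on the same strand, and 4 pseudogenes are annotated, so its counts are uncertain. The accessory proteins, which assist assembly and sorting of the pump, overlapped between the groups. ATP6AP2 had 21.9 and 18.6 CPM in YW-LF, against 11.6 and 19.3 CPM in DMSO. ATP6AP1 had 78.6 and 62.3 CPM in YW-LF, against 66.6 and 69.1 CPM in DMSO. Their log2 fold changes were 0.39 (SE 0.43, edgeR adjusted p = 0.635) and 0.06 (SE 0.35, edgeR adjusted p = 0.939).

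**Figure D3:**
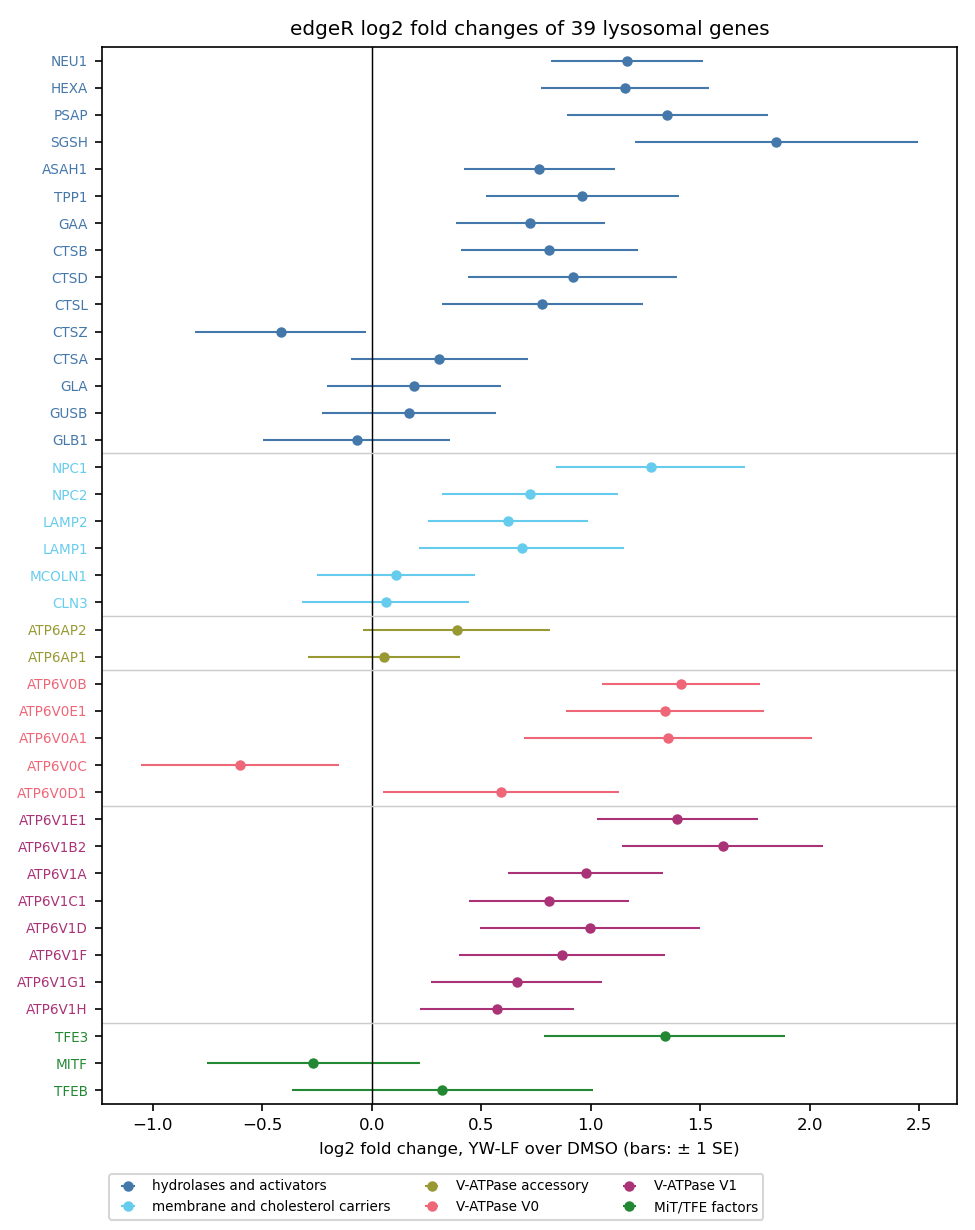
edgeR log2 fold changes of the 39 lysosomal genes, YW-LF over DMSO, with bars of 1 SE, coloured and grouped by class. All 8 V1 subunits lie between 0.57 and 1.60, whereas the 5 V0 subunits run from -0.60 to 1.41.

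The classes separated differently in the 2 treated libraries. Relative to the DMSO mean, the median log2 ratio of the hydrolases was 0.74 in the first treated library and 0.71 in the second. For the V1 subunits it was 0.62 and 1.22, and for the V0 subunits 0.04 and 1.56. The V1 median thus lay 0.12 below the hydrolase median in replicate 1 and 0.52 above it in replicate 2 (differences of medians on the log2 scale, -0.12 and 0.52). A common scaling of a library cancels in such a difference. The same V1 difference, taken for DMSO replicate 1 over replicate 2, was 0.09. The V0 median differed from that of the hydrolases by -0.71 and 0.86, against -0.22 for DMSO replicate 1 over replicate 2. With 2 libraries per group, these class differences were not tested.

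Between the treated libraries 16 of the 39 genes differed by more than 1.5-fold in TMM-scaled CPM, against 6 between the controls. The shares of all genes tested that did so were not computed. Of these 16, 14 were higher in YW-LF replicate 2, among them SGSH, ATP6V0A1, ATP6V0D1 and TFE3, and 2, CTSL and TFEB, in YW-LF replicate 1. Which treated library held more of the lysosomal transcripts as a whole depended on the scaling: 29 of 39 genes were higher in replicate 2 after TMM, but 14 of 39 when only library size was used. The TMM factors were 1.25 for YW-LF replicate 1 and 0.838 for YW-LF replicate 2. TMM thus raised replicate 2 relative to replicate 1, also in the counts at 1.5-fold. Ribosomal protein genes took a larger share of replicate 2, as given above, and the part of that in these differences was not tested.

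**Figure D4:**
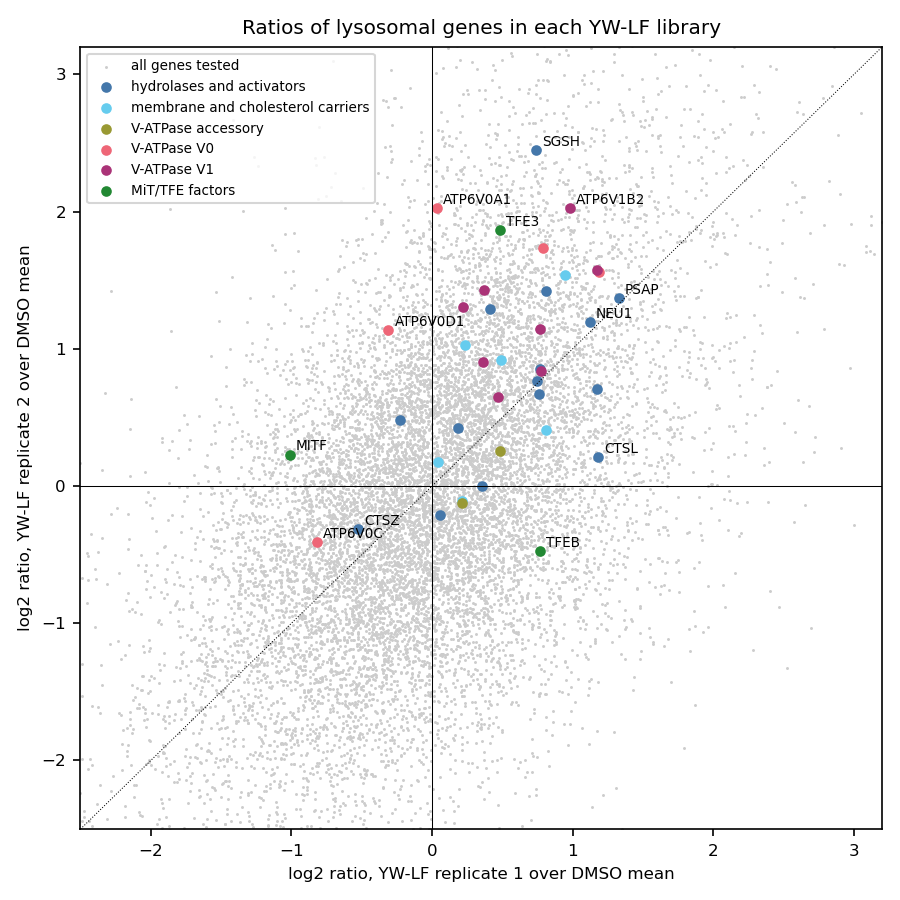
log2 ratio of each gene to the DMSO mean in YW-LF replicate 1 (horizontal) and replicate 2 (vertical), with all genes tested in grey (those beyond the axes are not drawn) and the lysosomal genes coloured by class; the dotted line marks equal ratios. PSAP and NEU1 lie near the line, ATP6V0A1, ATP6V0D1, SGSH and TFE3 above it, and CTSL and TFEB below it.

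The 3 transcription factors that bind CLEAR elements did not share a direction. TFE3 (ENSG00000068323, chromosome X, 49028726 to 49043486) had 232 and 606 CPM in YW-LF, against 169 and 163 CPM in DMSO. Both treated libraries lay above both controls, the second by far more (log2 fold change 1.34, SE 0.55, with adjusted p = 0.240 in edgeR and 0.095 in DESeq2). MITF, known best from pigment cells, had 16.5 and 39.6 CPM in YW-LF, against 32.6 and 34.8 CPM in DMSO. TFEB had 5.11 and 1.88 CPM in YW-LF, against 2.88 and 2.72 CPM in DMSO. For MITF and TFEB the treated libraries lay on opposite sides of the controls. Their log2 fold changes were -0.27 (SE 0.49, edgeR adjusted p = 0.786) and 0.32 (SE 0.69, edgeR adjusted p = 0.818). Without YW-LF replicate 1 they were 0.23 and -0.58, and without YW-LF replicate 2 the MITF value was -1.04, which edgeR then called lower (adjusted p = 0.036). TFEB rested on as few as 58 counts in a library, whereas every other gene of the 39 had at least 436.

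Per kilobase of transcript TFE3 was the most abundant of the family, at 123 CPM per kb in YW-LF and 48.5 CPM per kb in DMSO. MITF stood at 5.82 CPM per kb in YW-LF and 6.997 CPM per kb in DMSO, and TFEB at 1.48 CPM per kb in YW-LF and 1.19 CPM per kb in DMSO, the lowest of the 39 in both groups. The order TFE3, MITF, TFEB held in each group.

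Among the 28 genes with a promoter window, those with the 8-base motif had a lower median fold change than those without it, a difference that was not tested. The 7 genes that hold it had a median log2 fold change of 0.59. Both treated libraries lay above both controls in 4 of them (against 28% of all genes tested). The 21 genes without it had a median of 0.78, with 11 above (against the same 28%). No gene with the motif had a negative log2 fold change, but it was positive for 35 of all 39 genes. The genes without a window in the table used were LAMP2, CTSB, HEXA, PSAP, ASAH1, SGSH, ATP6V0E1, ATP6V1A, ATP6V1B2, ATP6V1C1 and ATP6V1H. In each of these genes both treated libraries lay above both controls, and neither median covers them.

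Other genes of lysosomal function, from 5 wider lists, showed smaller medians than the 39 genes, and edgeR called 0 of them in either direction. Of 21 tested regulators of TFEB and mTORC1, 11 had both treated libraries above both controls (against 28% of all genes tested) and 2 below (against 27.8%), with a median log2 fold change of 0.50. The members of lowest p were RRAGC, a Rag GTPase that recruits TFEB and mTORC1 to lysosomes, FLCN, the folliculin protein that acts on it, and LAMTOR3, part of the scaffold that anchors the Rag GTPases. RRAGC had 127 and 145 CPM in YW-LF, against 36.8 and 42.3 CPM in DMSO (1.78, SE 0.36, edgeR adjusted p = 0.121, DESeq2 adjusted p = 0.0029). FLCN had 122 and 182 CPM in YW-LF, against 44.5 and 42.9 CPM in DMSO (1.80, SE 0.39, with adjusted p = 0.121 in edgeR and 0.0038 in DESeq2). LAMTOR3 had 50.7 and 80.8 CPM in YW-LF, against 24.3 and 16.9 CPM in DMSO (1.67, SE 0.42, edgeR adjusted p = 0.130, DESeq2 adjusted p = 0.015). In all 3 genes the groups did not overlap.

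Of 33 further hydrolases and related enzymes tested, 17 had both treated libraries above both controls (against 28% of all genes tested) and 6 below (against 27.8%), with a median of 0.36. The cysteine protease CTSF was at 23.5 and 18.9 CPM in YW-LF, against 7.05 and 8.07 CPM in DMSO (1.49, SE 0.41). The carboxypeptidase SCPEP1 was at 58.9 and 58.7 CPM in YW-LF, against 26.5 and 22.5 CPM in DMSO (1.26, SE 0.35). HGSNAT, the acetyltransferase of heparan sulfate breakdown, was at 31.3 and 9.87 CPM in YW-LF, against 48.8 and 92.0 CPM in DMSO (-1.77, SE 0.63). DESeq2 called CTSF higher (adjusted p = 0.037) and HGSNAT lower (adjusted p = 0.038), and gave 0.060 for SCPEP1. HGSNAT and SGSH act in the same degradation pathway and had log2 fold changes of opposite sign.

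Of 18 further membrane proteins, 9 lay above (against 28% of all genes tested) and 2 below (against 27.8%), with a median of 0.33. The tetraspanin CD63 was at 314 and 641 CPM in YW-LF, against 144 and 128 CPM in DMSO (1.81, SE 0.50, with adjusted p = 0.141 in edgeR and 0.0074 in DESeq2). The amino acid transporter SLC36A1 was at 10.3 and 15.4 CPM in YW-LF, against 40.0 and 23.6 CPM in DMSO (-1.30, SE 0.45), and the polyamine transporter ATP13A2 at 32.8 and 24.8 CPM in YW-LF, against 51.6 and 53.3 CPM in DMSO (-0.87, SE 0.36). DESeq2 gave these transporters an adjusted p of 0.098 for SLC36A1 and 0.25 for ATP13A2.

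The wider list of other subunits and of assembly and regulatory factors of the V-ATPase, only some of them tissue-restricted, had a median near 0. Of 16 tested, 3 lay above and 4 below, shares under those of all genes tested (28% above and 27.8% below), with a median of 0.02. ATP6V0A4, the kidney form of the a subunit, was at 0.398 and 0.777 CPM in YW-LF, against 2.03 and 3.89 CPM in DMSO (-2.34, SE 0.76). TMEM199, an assembly factor, was at 22.0 and 37.8 CPM in YW-LF, against 15.9 and 12.8 CPM in DMSO (1.06, SE 0.43). ATP6V0D2, a form of the d subunit known from osteoclasts, was at 49.7 and 1.91 CPM in YW-LF, against 3.18 and 5.41 CPM in DMSO (2.59, SE 1.26), so that its fold change came from the first treated library. DESeq2 called ATP6V0D2 higher (adjusted p = 0.047), and gave 0.055 for ATP6V0A4 and 0.19 for TMEM199.

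Of 16 genes that sort enzymes to lysosomes, 4 lay above and 2 below, shares under those of all genes tested (28% above and 27.8% below), with a median of 0.16. VPS26A, a retromer subunit, was at 103.3 and 83.0 CPM in YW-LF, against 45.5 and 36.7 CPM in DMSO (1.18, SE 0.36). NAGPA, which uncovers the mannose phosphate tag, was at 6.43 and 6.80 CPM in YW-LF, against 10.8 and 12.3 CPM in DMSO (-0.80, SE 0.44), and GNPTG, a subunit of the enzyme that adds the tag, at 33.7 and 50.5 CPM in YW-LF, against 25.1 and 29.3 CPM in DMSO (0.63, SE 0.38). DESeq2 called none of these 3 genes, with adjusted p of 0.085 for VPS26A, 0.38 for NAGPA and 0.47 for GNPTG.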

How the data were processed

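Per the labels, the data are mRNA-seq libraries of MDA-MB-231 cells, and groups and replicate numbers come from sample titles. The authors deposited raw read counts per gene; the values are whole numbers. Aligner, counter, strand setting, annotation: these were not given in the sources used here. Genome builds named among the submitters' processing notes are of the mouse, yet all 20263 identifiers are human. A second deposited table repeats the DMSO counts (40526 of 40526 values identical), and 2 of its columns match no label and were not used.

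Symbols came from a reference table (20148 identifiers matched), coordinates and transcript lengths (the longest APPRIS principal transcript) from GENCODE 29. Genes kept by filterByExpr (13816) were fitted with edgeR 4.0.16 in R 4.3.3 (TMM scaling, quasi-likelihood F-test, Benjamini-Hochberg adjustment over all genes, threshold 0.05, no covariates). SE is the log2 fold change over the square root of F. 1 count equals 0.0199 to 0.0324 CPM. Log2 library ratios added 0.5 CPM. DESeq2 1.42.0, limma-voom 3.58.1, other scalings and filters, a replicate block and the omission of each library were alternatives. Replicates differed far beyond counting noise (chi-square per degree of freedom 596 in YW-LF and 257 in DMSO). Nothing in the labels says that replicates were separate cultures, so the p-values reflect only how far these samples vary, possibly for technical reasons.

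The genes, classes and lists were chosen with earlier results of these data known. All 39 genes are named; those of lowest p in each class get full statistics, and of each wider list the 3 of lowest p. Exons of 10 of the 39 overlap another gene of the table (CTSD, over 1166 of 2123 bases, ATP6V0C, CTSA, CLN3, GLB1, HEXA, MCOLN1, NPC1, SGSH and ATP6V1D), and without a stated strand setting such counts are uncertain.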

Additional observations from a re-analysis of the deposited data

How the results depend on the processing

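Of 507 log2 fold changes of single genes under 13 alternatives, 12 changed sign. With library size as the only scaling GLB1 was at 0.089. Otherwise 38 of 39 genes kept their sign under the scalings, filters and tests tried, and 30 of 39 in the fits without 1 library. In those fits the ranges were -0.0078 to 0.37 for GLA, -0.44 to 0.44 for GLB1, -0.24 to 0.48 for GUSB, -0.070 to 0.32 for MCOLN1, -0.11 to 0.20 for CLN3, -0.13 to 0.20 for ATP6AP1, -0.32 to 1.14 for ATP6V0D1, -0.58 to 0.86 for TFEB and -1.04 to 0.23 for MITF. With library size as the only scaling, 2 genes lay below DMSO in both YW-LF libraries and 26 above, and the membrane class median was 0.73. With upper quartile scaling 25 lay above. The shares of all genes tested above or below were not computed for these scalings. DESeq2 called 5 genes higher. The other scalings, filters and limma-voom called 0, with 10 to 14 genes higher at an unadjusted p under 0.05.

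Without 1 library, edgeR called 0 to 22 genes higher and 0 to 1 lower. At an unadjusted p under 0.05 there were 0 to 24 higher (0 without DMSO replicate 1 and 1 without DMSO replicate 2) and 0 to 1 lower. Groups with fewer libraries separate more easily, so counts of genes above or below DMSO in these fits were not set beside those of all libraries. Medians ranged from 0.48 to 0.85 for all 39 genes, 0.67 to 0.82 for hydrolases, 0.35 to 0.73 for the membrane class, 0.06 to 0.43 for accessory proteins, 0.024 to 1.58 for V0, 0.62 to 1.23 for V1 and 0.23 to 0.47 for the transcription factors. The V0 median was 0.024 without YW-LF replicate 2. The median of all genes tested moved by -0.11 without YW-LF replicate 1. The cause of the differences between these fits was not tested.

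The labels tie replicate numbers to no batch, and replicate differences in the groups were nearly uncorrelated across genes (r = 0.04). With the replicate block edgeR called 0 of the 39 genes, and 10 were higher at an unadjusted p under 0.05. In that fit the median log2 fold change was 0.73.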
